A study of Mus musculus with 6 samples.

Results

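The 36 genes described here encode the glucose transporter and enzymes of glycolysis, the transporters and the kinase that decide the fate of pyruvate and lactate, the oxygen sensors, and well-known targets of the hypoxia response. They come from a list of gene symbols drawn up with earlier results of these data known, and were matched by symbol, with no threshold on measured values, in a table of 52459 genes. All 36 were in the table, and all 36 passed the filter on low counts, as did 14857 genes in all. RNA had been sequenced from bone marrow derived macrophages of C57BL/6 mice, grown with GM-CSF, a growth factor for macrophages and granulocytes. Cultures at day 7 were given DMSO, the solvent control, or RIP1i overnight, with 3 libraries in each group. The comparison addresses how RIP1i, named for the kinase RIP1, alters the macrophage transcriptome. The labels give neither the compound nor its dose, nor the age or sex of the mice. They do not say whether the 3 libraries of a group came from separate cultures or animals, so the p-values rest on a spread between libraries that may be technical.

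Glycolysis breaks glucose down to pyruvate in the cytosol and yields ATP without oxygen. Its genes are shared targets of HIF-1, a transcription factor whose alpha subunit, encoded by Hif1a, is hydroxylated and degraded when oxygen is plentiful. Macrophages are known to raise glycolysis when activated, through HIF-1 among other routes. None of this is a measurement of these libraries: transcript levels report neither metabolic flux nor HIF-1 protein.

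The libraries held 40264902 to 44862310 counts each, and the 36 genes took 0.791% ± 0.045 of the counts in DMSO and 0.775% ± 0.026 in RIP1i (SD, n = 3 each). All 8 macrophage markers examined were detected, with Lyz2, which encodes lysozyme, far above the others. Summed over 5 lymphocyte markers and over 6 erythroid markers, levels stayed under 1 CPM (counts relative to the TMM-scaled library total) in every library. Libraries differed in the transcripts of other cell types, and these differences cut across the treatment. The sum of 10 stromal markers, mostly collagen and fibroblast genes, was 91.0 to 370.2 CPM in DMSO and 85.4 to 244 CPM in RIP1i. The sum of 8 neutrophil and precursor markers was 226 to 624 CPM in DMSO and 222 to 656 CPM in RIP1i. For 5 dendritic cell markers, mostly Itgax, it was 1202 to 1353 CPM in DMSO and 1308 to 1439 CPM in RIP1i. For 6 mast cell and basophil markers, mostly Kit, it was 170 to 210 CPM in DMSO and 172 to 208 CPM in RIP1i. In such bulk samples, fewer cells of a type and less RNA per cell cannot be told apart.

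Per unit of gene length, Pkm and Aldoa stood highest of the 36 genes and the hypoxia targets Adm and P4ha2 lowest. Levels here are the deposited FPKM, which divide counts by gene length and so can be compared between genes. Pkm, which encodes the pyruvate kinase of the final step, stood at 383, 452 and 361 FPKM in the DMSO libraries and 404, 330.0 and 426 FPKM in the RIP1i libraries. Aldoa, the main aldolase gene, stood at 340.0, 379 and 352 FPKM in DMSO and 368, 356 and 366 FPKM in RIP1i. The ranges of these 2 genes overlapped, so their order was not fixed beyond the spread of the libraries. Ldha, which encodes the lactate dehydrogenase subunit that turns pyruvate into lactate, came next at 166 to 185 FPKM over the 6 libraries. Gapdh, a standard reference gene, followed at 124 to 133 FPKM, without overlap with Ldha. Genes with processed copies in the genome, Gapdh, Ldha, Pgk1, Pgam1, Aldoa and Eno1 among them, may share reads with those copies, and how such reads were treated is not given in the sources used here. Their levels are uncertain for that reason. Copies whose names mark them as such held at most 0.709% of their parent's counts.

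**Figure D1:**
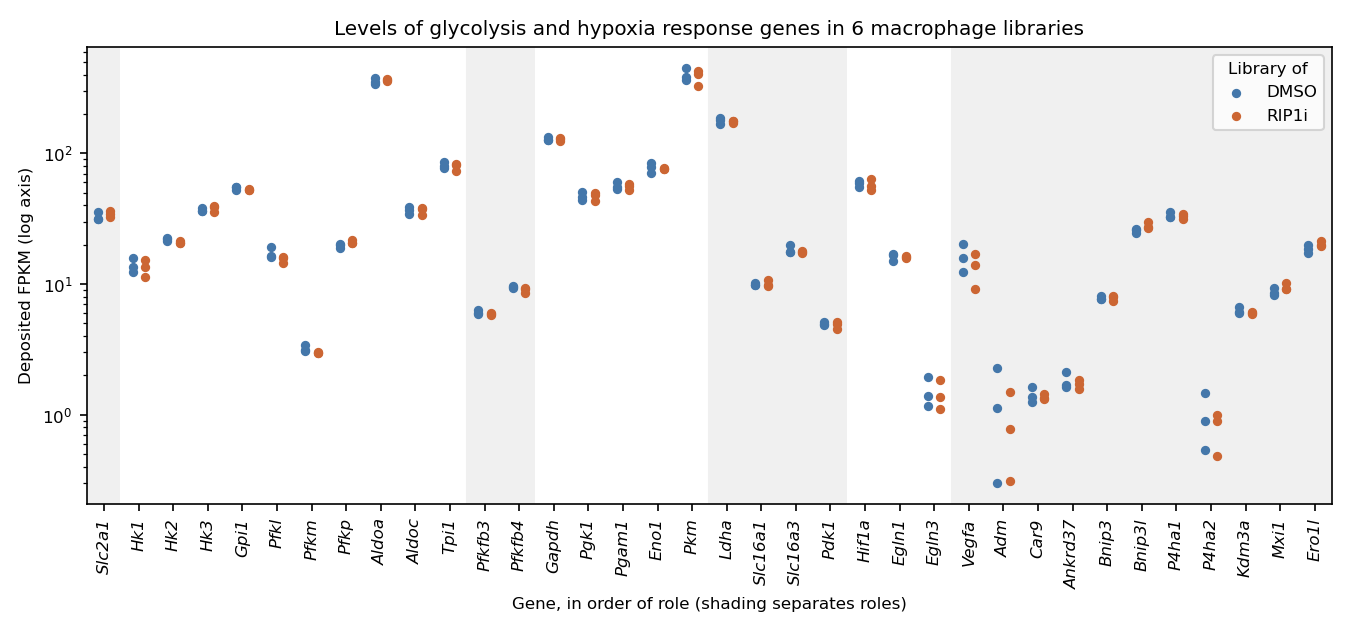
Deposited FPKM (log axis) of the 36 genes in order of role, with 1 point per library for DMSO and RIP1i. Pkm and Aldoa lie highest, at 330.0 to 452 FPKM; the points of Adm, P4ha2 and Vegfa are spread widely within both groups, while most genes form tight clusters.

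In upper glycolysis, Tpi1, the triosephosphate isomerase gene, had a mean of 79.9 FPKM over the 6 libraries and Gpi1, the glucose phosphate isomerase gene, had 53.4 FPKM. Slc2a1, which encodes the glucose transporter GLUT1, had 33.6 FPKM. Lower glycolysis lay between 47.1 FPKM for Pgk1, phosphoglycerate kinase, and 393 FPKM for Pkm, with Pgam1, phosphoglycerate mutase, at 55.8 FPKM and Eno1, enolase, at 76.9 FPKM. Pfkfb3 and Pfkfb4, whose enzymes make the sugar bisphosphate that activates phosphofructokinase, had 5.99 and 9.26 FPKM. Pdk1, which encodes a kinase that shuts pyruvate out of the mitochondrial dehydrogenase, had 4.92 FPKM.

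Among the oxygen-sensing genes Hif1a was abundant, at 59.0, 61.7 and 55.3 FPKM in DMSO and 56.6, 52.3 and 63.7 FPKM in RIP1i. Of the prolyl hydroxylases that mark HIF-1 alpha for degradation, Egln1 had 16.1 FPKM and Egln3 had 1.47 FPKM as means over the 6 libraries. The hypoxia targets spanned a wide range. P4ha1, a catalytic subunit of collagen prolyl hydroxylase, led them at 33.2 FPKM, followed by Bnip3l, a mitophagy receptor gene, at 26.7 FPKM, and Ero1l, an oxidoreductase gene of the endoplasmic reticulum, at 19.4 FPKM. Vegfa, the vascular growth factor gene, had 14.7 FPKM, Mxi1, a MYC antagonist gene, had 9.09 FPKM, Bnip3, another mitophagy receptor gene, had 7.82 FPKM, and Kdm3a, a histone demethylase gene, had 6.13 FPKM. At the bottom stood Ankrd37, an ankyrin repeat gene, at 1.77 FPKM, Car9, a carbonic anhydrase gene, at 1.39 FPKM, Adm, which encodes adrenomedullin, at 1.05 FPKM, and P4ha2, the other collagen prolyl hydroxylase subunit, at 0.877 FPKM. These 4 genes and Egln3 had 21 to 368 counts per library, so low counts limit the precision of their values.

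None of the 36 genes differed between RIP1i and DMSO libraries beyond the test's threshold. By the quasi-likelihood test of edgeR, with Benjamini-Hochberg adjustment over all genes tested, 0 of 36 had an adjusted p under 0.05, where 0% of all genes tested did. The smallest adjusted p among them was 0.777. DESeq2 and limma-voom also called 0 of the 36. At an unadjusted p under 0.05 there was 1 gene, Bnip3l, or 2.78%, where 6.21% of all genes tested were counted. The intervals were narrow for most. The 95% interval of the log2 fold change excluded changes of 1.2-fold or more in 25 genes (46.5% of all genes tested) and of 1.5-fold or more in 32 (73.0% of all genes tested). The exceptions at 1.5-fold were Egln3, Vegfa, Adm and P4ha2.

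**Figure D2:**
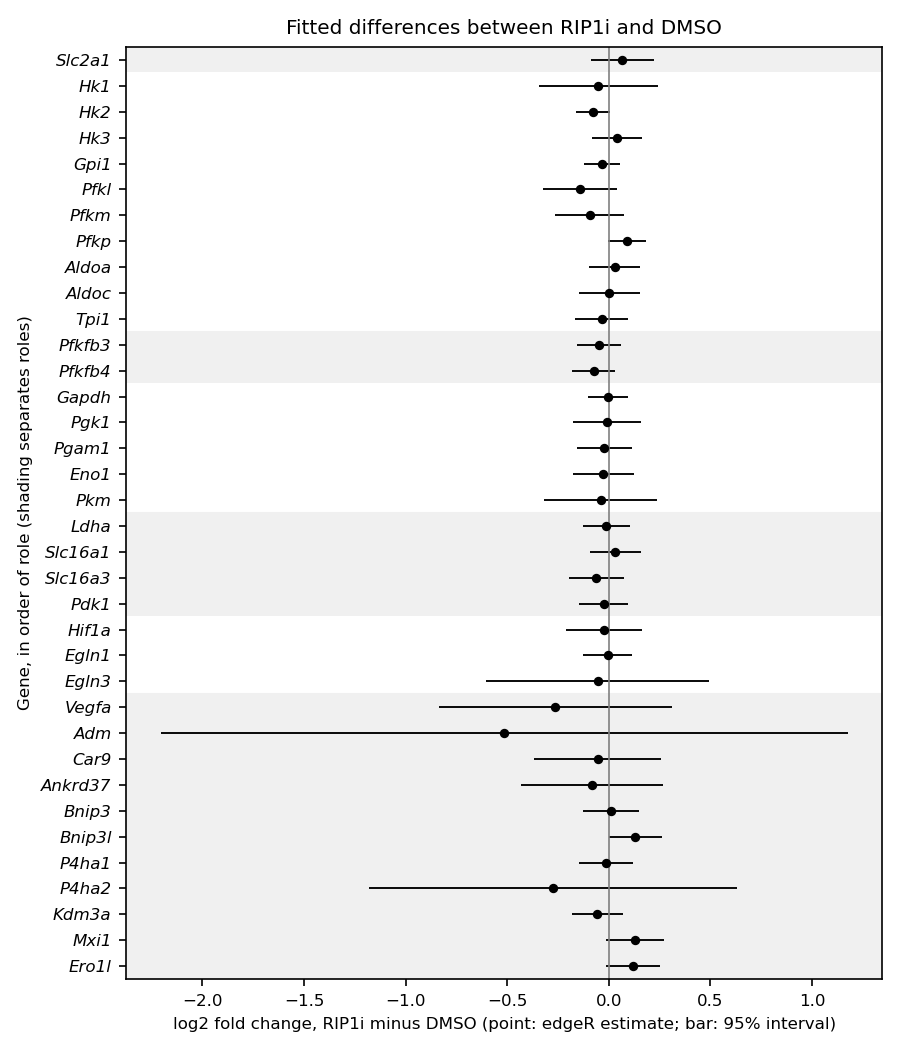
Log2 fold change of RIP1i minus DMSO for the 36 genes, with edgeR's estimate as a point and its 95% interval as a bar. Every interval but that of Bnip3l, at 0.13, spans 0, and the bar of Adm, from -2.21 to 1.18, is by far the widest.

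Of the 36 genes, 26 were fitted lower and 10 higher in RIP1i, where 49.0% of all genes tested were fitted lower and 51.0% higher. Their median log2 fold change was -0.026, against 0.0025 over all genes tested. Without DMSO replicate 2, 14 were fitted lower and 22 higher, with a median of 0.020. Without RIP1i replicate 2, 20 were fitted lower and 16 higher. DMSO replicate 2 was the highest library for 20 of the 36 genes, and RIP1i replicate 2 the lowest for 18. Omitting either library thus raises the estimates of those genes by construction. By role, both phosphofructokinase regulators, all 5 genes of lower glycolysis, all 3 oxygen-sensing genes, 6 of 10 genes of upper glycolysis, 3 of 4 genes of pyruvate and lactate fate, and 7 of 11 hypoxia targets were fitted lower. Slc2a1 stood at 111, 126 and 109 CPM in DMSO and 121, 114 and 127 CPM in RIP1i, with overlapping groups. Its log2 fold change was 0.067 (95% interval -0.088 to 0.22), and leaving out DMSO replicate 1, 2 or 3 gave 0.030, 0.126 and 0.024. Leaving out RIP1i replicate 3 gave 0.023. Aldoa, the most abundant gene of upper glycolysis, was at 0.029 (-0.097 to 0.16), and at -0.014 without DMSO replicate 1. Ldha stood at 553, 615 and 593 CPM in DMSO and 592, 580.1 and 573 CPM in RIP1i, with all RIP1i libraries inside the DMSO range. Its log2 fold change was -0.013 (-0.13 to 0.10), which turned to 0.015 without DMSO replicate 2. P4ha1 stood at 133, 147 and 132 CPM in DMSO and 137, 129 and 142 CPM in RIP1i, with the groups intermixed. Its log2 fold change was -0.015 (-0.15 to 0.12), which turned to 0.027 without DMSO replicate 2 and 0.013 without RIP1i replicate 2. The 16 genes for which no estimate is given one by one lay between -0.085 for Ankrd37 and 0.040 for Hk3.

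Most of the 36 genes were steady across libraries. From the lowest to the highest library the median range was 1.15-fold for the 36 genes, against 1.23-fold over all genes tested. Among the 30 with a mean of at least 10 CPM it was 1.148-fold, against 1.144-fold for all such genes. Gpi1, at 339 to 355 CPM, had the smallest range at 1.05-fold, and Gapdh, at 519 to 551 CPM, followed at 1.06-fold. Among the lactate and pyruvate genes, Slc16a3 stood at 92.1 to 107 CPM, Slc16a1 at 42.7 to 48.3 CPM and Pdk1 at 35.6 to 39.8 CPM. Tpi1 stood at 204 to 235 CPM, Eno1 at 382 to 455 CPM, Pgk1 at 96.7 to 115 CPM and Pgam1 at 95.5 to 110.0 CPM. Of the hypoxia targets, Kdm3a stood at 48.2 to 55.2 CPM, Ankrd37 at 2.41 to 3.27 CPM and Car9 at 2.89 to 3.76 CPM. In each of these genes the DMSO and RIP1i libraries overlapped.

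In 5 of the 36 genes (13.9%) the RIP1i libraries did not overlap the DMSO libraries, where 13.5% of all genes tested were so separated. In 3 of them RIP1i lay lower (6.18% of all genes tested) and in 2 higher (7.36% of all genes tested). These shares lie near the background.

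Bnip3l (GRCm38, chromosome 14, 66985239 to 67008877, minus strand) encodes a receptor in the outer mitochondrial membrane that recruits the autophagy machinery. It stood at 102, 94.9 and 99.3 CPM in DMSO and at 104, 104 and 116 CPM in RIP1i. Every RIP1i library lay above every DMSO library, but RIP1i replicates 1 and 2 exceeded the highest DMSO library by little. The log2 fold change was 0.13 with an interval from 0.000975 to 0.26 and an adjusted p of 0.777 in edgeR. It was 0.071 without RIP1i replicate 3. Its relative Bnip3 stood at 17.6, 18.2 and 17.2 CPM in DMSO and 18.1, 16.8 and 18.7 CPM in RIP1i, with the groups intermixed. The Bnip3 log2 fold change was 0.013 (-0.13 to 0.15), and it took either sign, from -0.025 to 0.044, when 1 library was left out.

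The hexokinase and phosphofructokinase families held the other separations apart from Pfkfb4. Hk2 (chromosome 6, 82725025 to 82774454, minus strand), the inducible hexokinase gene, stood at 129, 132 and 133 CPM in DMSO and 127, 122 and 125 CPM in RIP1i. The lowest DMSO library and the highest RIP1i library lay close together, and the log2 fold change was -0.079 (-0.16 to 0.0055). Pfkp (chromosome 13, 6579768 to 6648777, minus strand), the platelet-type phosphofructokinase gene, stood at 256, 265 and 270.3 CPM in DMSO and 277, 289 and 277 CPM in RIP1i. All RIP1i libraries lay above all DMSO libraries, with a log2 fold change of 0.091 (-0.0027 to 0.18), or 0.058 without DMSO replicate 1 and 0.060 without RIP1i replicate 2. Pfkm, the muscle-type gene, stood at 9.08, 10.2 and 9.13 CPM in DMSO and 8.85, 8.95 and 8.82 CPM in RIP1i, with RIP1i lower throughout and a log2 fold change of -0.094 (-0.26 to 0.077), or -0.044 without DMSO replicate 2. Pfkl, the liver-type gene, stood at 108, 128 and 108 CPM in DMSO and 107, 96.1 and 109 CPM in RIP1i. Its groups overlapped, and its log2 fold change was -0.14 (-0.33 to 0.041), or -0.065 without DMSO replicate 2. Pfkfb4 stood at 46.5, 45.9 and 46.9 CPM in DMSO and 44.9, 41.8 and 45.6 CPM in RIP1i, at -0.075 (-0.18 to 0.032) on the log2 scale, or -0.048 without RIP1i replicate 2. RIP1i replicate 2 alone lay well below the rest.

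The share of each paralog in its family's summed FPKM gives a comparison within a library that does not depend on library scaling. Hk3 was the main hexokinase gene by this measure, with 50.8%, 50.2% and 50.9% in the DMSO libraries and 52.6%, 52.7% and 52.3% in the RIP1i libraries. The 2 groups were separated, by 1.89 percentage points (exact 2-sided permutation p = 0.1, the smallest that 3 against 3 libraries allow). Hk2 held 30.3% ± 1.34 in DMSO and 29.0% ± 1.47 in RIP1i and Hk1, the widely expressed form, 19.0% ± 1.67 and 18.5% ± 1.68 (SD, n = 3), both with overlapping groups. Of the phosphofructokinase transcripts, Pfkp made up 49.9%, 46.7% and 51.1% in DMSO and 52.1%, 55.3% and 51.8% in RIP1i. Pfkl made up 42.1%, 45.1% and 41.1% in DMSO and 40.3%, 36.9% and 40.7% in RIP1i. RIP1i thus lay higher for Pfkp and lower for Pfkl in every library, by 3.86 and -3.45 percentage points (exact permutation p = 0.1 each). The Pfkp difference was 1.5 percentage points, and the Pfkl difference -1.08, without DMSO replicate 2 and RIP1i replicate 2, the libraries with the highest and lowest stromal marker sums. That alternative was chosen after the data were seen. Both shares also had their extremes in these 2 libraries, so omitting them shrinks the differences by construction. Pfkm held 8.0% ± 0.159 in DMSO and 7.59% ± 0.166 in RIP1i, also separated.

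**Figure D3:**
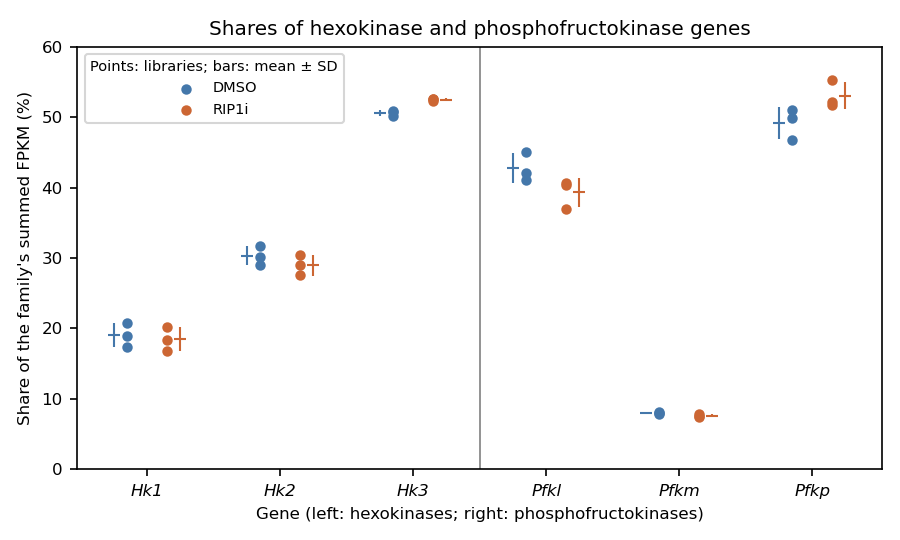
Share of each gene in the summed FPKM of its family, in percent, for hexokinases and phosphofructokinases, with points for the libraries and bars for the mean ± SD (n = 3 per group). DMSO and RIP1i points are apart for Hk3, Pfkl, Pfkm and Pfkp and mixed for Hk1 and Hk2.

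In all, 12 shares from 8 families were compared, with an adjusted p of 0.3 for these 4 after Benjamini-Hochberg adjustment of the exact permutation p over the 12. Shares within a family are tied to each other, so the 3 phosphofructokinase separations are not separate observations. In the other 6 families the groups overlapped. Aldoa supplied 90.7% ± 0.103 of aldolase FPKM in DMSO and 90.8% ± 0.396 in RIP1i, with Aldoc, the form best known from brain, supplying the rest. Slc16a3, which encodes the lactate exporter MCT4, supplied 64.8% ± 1.96 and 63.4% ± 1.09 of the pair it forms with Slc16a1, which encodes MCT1. P4ha1 supplied 97.2% ± 1.15 and 97.7% ± 0.706 of its pair, and Bnip3l supplied 76.6% ± 1.09 and 78.0% ± 0.825 of its pair (SD, n = 3). Egln1 supplied 91.5% ± 1.97 and 91.8% ± 1.99 of the 2 HIF prolyl hydroxylase genes listed, and Pfkfb4 supplied 61.0% ± 1.21 and 60.5% ± 0.651 of its pair (SD, n = 3). The Egln1 share leaves out Egln2, whose mean FPKM was above that of Egln1, so it is not a share of all HIF prolyl hydroxylase transcripts. Over the 6 libraries P4ha2 made up 1.51% to 3.95% of its pair and Egln3 6.34% to 10.4%.

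Levels of many of the genes varied with the library in both groups. For 20 of the 36 genes (55.6%) DMSO replicate 2 was the highest of the 6 libraries, where this held for 19.6% of all genes tested. For 18 (50%) RIP1i replicate 2 was the lowest, against 25.3% of all genes tested. Both held for 11 genes (30.6%), against 9.17% of all genes tested: Hk1, Pfkl, Aldoc, Pfkfb3, Pgk1, Pgam1, Pkm, Slc16a3, Vegfa, P4ha1 and P4ha2. The reverse order, RIP1i replicate 2 highest and DMSO replicate 2 lowest, held for Mxi1 and Ero1l (5.56%, against 6.85% of all genes tested). These counts were made after the values had been seen. The stromal marker sum had the same extremes, with 370.2 CPM in DMSO replicate 2 and 85.4 CPM in RIP1i replicate 2. Of its 10 genes, 9 were highest in the former and 8 lowest in the latter. The macrophage marker sum, mostly Lyz2, had these extremes too, at 58487.8 and 44031.5 CPM. Its member Adgre1 ran the other way, at 519 and 711 CPM, as did the neutrophil marker sum, at 226 and 656 CPM. The part of stromal, macrophage or neutrophil transcripts in this pattern was not tested.

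**Figure D4:**
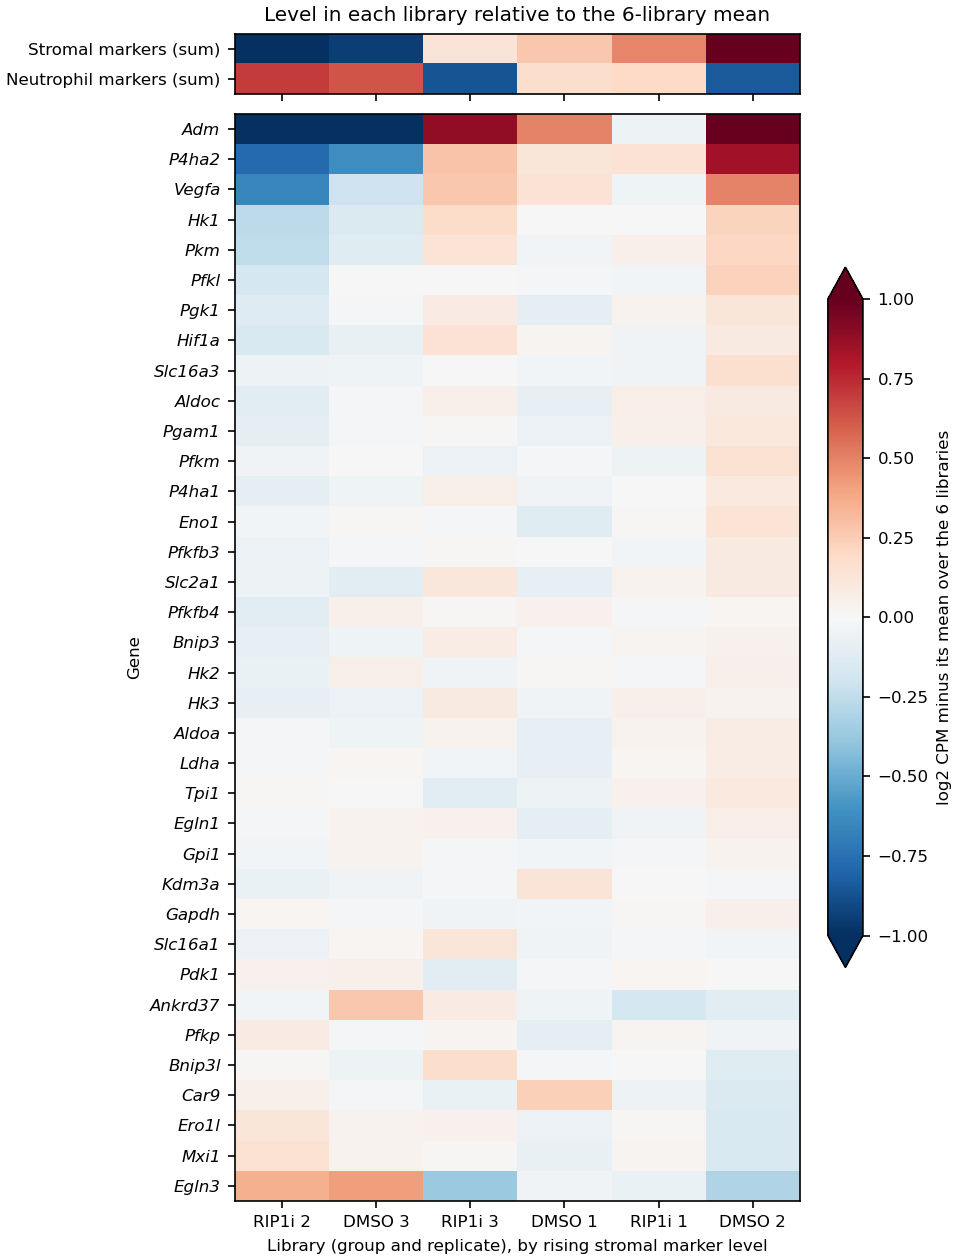
Log2 CPM of each gene minus its mean over the 6 libraries (colours saturate at -1 and 1), with libraries ordered by stromal marker sum and genes by the difference between DMSO replicate 2 and RIP1i replicate 2. The upper strip shows the summed stromal and neutrophil markers in the same way; Adm, P4ha2 and Vegfa follow the stromal strip at both ends, and Egln3 runs the other way.

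The widest spread belonged to 4 genes whose highest library lay at least 1.5-fold above the lowest, 11.1% of the 36 against 27.7% of all genes tested. Vegfa (chromosome 17, 46016993 to 46032369, minus strand) stood at 67.7, 86.6 and 53.1 CPM in DMSO and 59.7, 39.0 and 74.0 CPM in RIP1i. Adm (chromosome 7, 110627661 to 110629820, plus strand), a vasodilator peptide gene, stood at 1.84, 3.68 and 0.486 CPM in DMSO and 1.26, 0.499 and 2.42 CPM in RIP1i. P4ha2 (chromosome 11, 54100095 to 54131665, plus strand) stood at 5.58, 9.16 and 3.34 CPM in DMSO and 5.65, 2.99 and 6.26 CPM in RIP1i. In all 3 genes DMSO replicate 2 and RIP1i replicate 3 were the 2 highest libraries, and DMSO replicate 3 and RIP1i replicate 2 the 2 lowest, so each treatment held a high and a low library. From lowest to highest library the range was 2.22-fold for Vegfa, 3.06-fold for P4ha2 and 7.58-fold for Adm, which had 21 to 148 counts per library. Egln3 (chromosome 12, 54178981 to 54203860, minus strand) stood at 3.73, 3.11 and 5.13 CPM in DMSO and 3.67, 4.89 and 2.97 CPM in RIP1i. Its order was the opposite, with DMSO replicate 3 and RIP1i replicate 2 highest, as they also were in the neutrophil marker sum at 624 and 656 CPM.

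The fitted treatment differences of these genes depended on single libraries, and all but that of Vegfa changed sign. Vegfa had a log2 fold change of -0.26 (-0.84 to 0.31), which shrank to -0.076 without DMSO replicate 2 and -0.057 without RIP1i replicate 2. Adm had -0.52 (-2.21 to 1.18) and P4ha2 -0.27 (-1.18 to 0.63), which turned to 0.25 and 0.15 without DMSO replicate 2 and were -0.12 and -0.020 without RIP1i replicate 2. Egln3 had -0.056 (-0.61 to 0.50), which turned to 0.16 without DMSO replicate 3 and 0.096 without RIP1i replicate 3. In all 4 genes the interval included a 1.5-fold decrease in RIP1i, and in Adm and P4ha2 also a 1.5-fold increase. Milder versions of the order of Vegfa, Adm and P4ha2 were seen in Hif1a, P4ha1, Bnip3 and Slc16a3, and in 2 abundant glycolysis genes. Pkm stood at 1924, 2264 and 1801 CPM in DMSO and 2025, 1645 and 2151 CPM in RIP1i, and its log2 fold change of -0.041 (-0.32 to 0.24) turned to 0.052 without DMSO replicate 2. Hk1 stood at 116, 135 and 105 CPM in DMSO and 115, 96.4 and 131 CPM in RIP1i, and its log2 fold change of -0.053 (-0.35 to 0.24) turned to 0.044 without DMSO replicate 2.

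Ero1l and Mxi1 gave the largest positive estimates after Bnip3l. Ero1l stood at 82.0, 77.0 and 87.8 CPM in DMSO and 86.5, 93.1 and 88.3 CPM in RIP1i, with a log2 fold change of 0.12 (-0.015 to 0.25) and an overlap between the groups. Mxi1 stood at 48.4, 46.1 and 52.3 CPM in DMSO and 52.0, 56.9 and 51.5 CPM in RIP1i, at 0.13 (-0.016 to 0.27). The 2 estimates shrank to 0.075 and 0.070 without RIP1i replicate 2, and to 0.066 and 0.081 without DMSO replicate 2. Hif1a itself, at 349, 365 and 325 CPM in DMSO and 335, 308 and 379 CPM in RIP1i, had -0.024 (-0.21 to 0.17), with RIP1i holding both the highest and the lowest library. It turned to 0.0084 without DMSO replicate 2 and 0.034 without RIP1i replicate 2. Egln1 stood at 54.2 to 60.6 CPM in the 6 libraries.

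Promoters are shown for the genes with the strongest library pattern (Adm, P4ha2, Vegfa) and for the glycolysis gene Pgk1. They are also shown for Egln3 and Ero1l, which were lower in DMSO replicate 2 than in RIP1i replicate 2. Pgk1 also had DMSO replicate 2 highest and RIP1i replicate 2 lowest, but over a narrower range of 1.19-fold. HIF-1 is known to bind DNA at a short core motif, searched here as ACGTG and as GCGTG on both strands. Sequences are the 250 bases before a transcript start, from RefSeq on build GRCm38.p6, and the first window listed was taken where a gene had several. They are written from 5′ to 3′ on the gene's strand, and capitals mark ACGTG or GCGTG on either strand, so that CACGT and CACGC are matches on the opposite strand. The windows lie at chr7:110627407-110627656 (Adm, plus strand), chr11:54100674-54100923 (P4ha2, plus strand), chr17:46032378-46032627 (Vegfa, minus strand), chr12:54203875-54204124 (Egln3, minus strand), chr14:45318573-45318822 (Ero1l, minus strand) and chrX:106186850-106187099 (Pgk1, plus strand).
Adm: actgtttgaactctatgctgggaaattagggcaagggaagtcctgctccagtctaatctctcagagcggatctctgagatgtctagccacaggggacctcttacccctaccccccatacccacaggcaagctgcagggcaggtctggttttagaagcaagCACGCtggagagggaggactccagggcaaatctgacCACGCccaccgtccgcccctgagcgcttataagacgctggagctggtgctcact
P4ha2: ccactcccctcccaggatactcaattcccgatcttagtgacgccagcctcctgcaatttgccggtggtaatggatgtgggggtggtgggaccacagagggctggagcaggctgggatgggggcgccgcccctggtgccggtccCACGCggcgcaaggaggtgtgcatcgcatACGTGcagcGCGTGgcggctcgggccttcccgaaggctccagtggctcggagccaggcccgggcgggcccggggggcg
Vegfa: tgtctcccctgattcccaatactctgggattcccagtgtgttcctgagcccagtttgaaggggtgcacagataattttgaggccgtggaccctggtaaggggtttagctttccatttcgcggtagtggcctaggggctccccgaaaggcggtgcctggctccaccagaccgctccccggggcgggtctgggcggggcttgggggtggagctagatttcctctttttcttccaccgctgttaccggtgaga
Egln3: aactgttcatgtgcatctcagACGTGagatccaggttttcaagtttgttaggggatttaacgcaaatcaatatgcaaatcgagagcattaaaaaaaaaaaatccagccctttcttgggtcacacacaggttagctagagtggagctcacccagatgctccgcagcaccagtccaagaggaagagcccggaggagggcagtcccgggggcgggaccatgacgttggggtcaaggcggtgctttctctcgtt
Ero1l: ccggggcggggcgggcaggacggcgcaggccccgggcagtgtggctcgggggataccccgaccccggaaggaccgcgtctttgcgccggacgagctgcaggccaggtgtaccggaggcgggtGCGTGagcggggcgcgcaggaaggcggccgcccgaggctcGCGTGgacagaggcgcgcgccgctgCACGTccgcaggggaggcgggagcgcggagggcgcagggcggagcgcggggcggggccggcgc
Pgk1: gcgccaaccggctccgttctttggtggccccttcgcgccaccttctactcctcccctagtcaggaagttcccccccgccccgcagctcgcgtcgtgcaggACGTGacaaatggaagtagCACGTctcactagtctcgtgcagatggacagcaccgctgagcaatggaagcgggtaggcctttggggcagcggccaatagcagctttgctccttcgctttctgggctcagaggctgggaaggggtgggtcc

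Of these windows, Adm held 2 matches to GCGTG, P4ha2 held 1 to ACGTG and 2 to GCGTG, Egln3 held 1 to ACGTG, Ero1l held 1 to ACGTG and 2 to GCGTG, and Pgk1 held 2 to ACGTG. The first of the 2 Vegfa windows, printed here, held neither, and the other, at chr17:46025164-46025413, held 1 match to each. Genes that were high in DMSO replicate 2 and genes that were low there thus both included windows with a match. RefSeq windows were matched for 35 of the 36 genes, Ero1l through its current symbol Ero1a, and not for Bnip3l. They had 53 windows, of which 27 (50.9%) held ACGTG, against 16.6% of all 32851 windows of the same length. GCGTG was also in 27 (50.9%), against 28.2% of all windows, and at least 1 of these motifs was in 42 (79.2%), against 38.6%. The palindrome CACGTG, which contains ACGTG on both strands and is the E-box bound by MYC and MXI1 partners, was in 6 windows (11.3%), against 6.02% of all windows. A match describes letters in the window and is no evidence of binding, and windows of a gene can overlap. The genes were listed as glycolysis genes and known hypoxia targets, so their higher shares are no independent test of HIF-1 motifs.

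A wider list of 54 glycolysis and hypoxia genes was examined beside them. Of these, 46 were tested, and 8 had too few counts. With edgeR's test 0 of 46 had an adjusted p under 0.05, 27 were fitted lower and 19 higher, and the median log2 fold change was -0.021, against 0.0025 over all genes tested. At an unadjusted p under 0.05 there was 1 gene (2.17%, against 6.21% of all genes tested). This was Ccng2, an atypical cyclin gene, at 44.5, 44.1 and 47.0 CPM in DMSO and 50.7, 48.6 and 54.0 CPM in RIP1i. Its groups did not overlap, and the estimate was 0.18 on the log2 scale (0.054 to 0.30), with adjusted p = 0.777 in edgeR. The next smallest p-values belonged to Ndrg1, a hypoxia-induced gene, at 0.16 (-0.020 to 0.35), Egln2, the other HIF prolyl hydroxylase gene, at 0.070 (-0.026 to 0.17), and Pdha1, a pyruvate dehydrogenase subunit gene, at 0.082 (-0.038 to 0.20).

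In the wider list, DMSO replicate 2 was highest and RIP1i replicate 2 lowest for 12 of 46 genes (26.1%), against 9.17% of all genes tested. Plod2, a collagen lysyl hydroxylase gene, stood at 3.89, 6.84 and 1.75 CPM in DMSO and 4.02, 1.12 and 6.18 CPM in RIP1i. It had DMSO replicate 2 and RIP1i replicate 3 as the highest libraries and DMSO replicate 3 and RIP1i replicate 2 as the lowest, as Vegfa, Adm and P4ha2 had. Slc2a6, a sugar transporter gene expressed in leukocytes, had the same order at a higher level, with 94.5, 119 and 85.7 CPM in DMSO and 101, 73.3 and 118 CPM in RIP1i. Both genes were chosen after their values were seen.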

How the data were processed

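RNA was measured by sequencing in 3 DMSO and 3 RIP1i libraries, grouped by the treatment in their labels. The authors deposited raw read counts per gene and FPKM values for the same libraries. The submitters' processing notes name STAR 2.5.3a, featureCounts and Subread 1.4.6-p3, CASAVA 1.8.4 and DESeq2 1.14.0, and the mouse build mm10, without their roles. The sources used here do not give the gene annotation, strandedness or handling of multi-mapped reads. The deposited FPKM are the counts per length divided by median-of-ratios size factors (checked to within 0.000202%), so they add no measurement.

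Members, lists and tests were chosen with earlier results of these data known. Genes were filtered with filterByExpr (minimum count 10, minimum total 15) and tested with edgeR 4.0.16 (glmQLFTest, R 4.3.3), 2-sided, treatment as the only term, TMM scaling, and Benjamini-Hochberg adjustment over all 14857 genes. The script was tested on simulated data. Log2 fold changes are RIP1i minus DMSO. Intervals are 95% and cover the spread between libraries. CPM use TMM scaling. Paralog shares used exact permutation tests. All 36 genes are accounted for. Some genes of the wider list count in its totals and are not reported by name here. Those given in full are the highest of each role group, those with an unadjusted p under 0.05 or groups that do not overlap, and others chosen after their values were seen (Vegfa, Adm, P4ha2, Egln3, Hk1, Pfkl, Bnip3, Ero1l and Mxi1). Gene coordinates are from GENCODE M21 (GRCm38, the same assembly as mm10). Alternatives were other scalings and filters, DESeq2 1.42.0, limma 3.58.1 (voom on counts, and trend on log2 FPKM with a pseudocount of 1 or 0.1), the replicate number as a block, and leaving out each library.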

Additional observations from a re-analysis of the deposited data

How the results depend on the processing

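No setting called any of the 36 genes at an adjusted p under 0.05. Over all genes tested, edgeR called 0, DESeq2 called 2, and limma-trend on log2(FPKM + 1) without a filter called 4. The number of the 36 genes fitted lower was 26 or 27 under every other scaling, filter, tool and the replicate block, and ran from 14 to 28 when 1 library was left out. Their median log2 fold change ran from -0.065 to 0.020 in the latter. Without DMSO replicate 2 and RIP1i replicate 2 together, an alternative chosen after the data were seen, 13 were fitted lower, and the log2 fold change turned to 0.15 for Hk1, 0.15 for Pkm, 0.070 for Hif1a, 0.13 for Vegfa, 0.65 for Adm, 0.41 for P4ha2, 0.059 for P4ha1 and 0.011 for Ldha. In all of these genes but Ldha, DMSO replicate 2 was the highest DMSO library and RIP1i replicate 2 the lowest RIP1i library. Omitting both therefore raises their estimates by construction. For Ldha only the first held, and omitting its highest DMSO library acts in the same direction. In that setting the difference in paralog share turned to 1.12 percentage points for Hk1, -0.060 for Aldoa and -0.56 for P4ha1.

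Leaving out 1 library at a time gave log2 fold changes from -0.014 to 0.069 for Aldoa, -0.17 to 0.045 for Hk1, -0.13 to 0.054 for Pkm, -0.066 to 0.015 for Ldha, -0.053 to 0.027 for P4ha1, -0.025 to 0.044 for Bnip3, -0.11 to 0.034 for Hif1a, -1.18 to 0.25 for Adm, -0.57 to 0.15 for P4ha2 and -0.28 to 0.16 for Egln3. Differences in share, in percentage points, ran from -1.41 to 0.30 for Hk1, -0.0063 to 1.1 for Pfkfb3, -0.060 to 0.31 for Aldoa, -0.71 to 1.31 for Egln1 and -0.15 to 0.996 for P4ha1. The shares of Hk3, Pfkl, Pfkm and Pfkp kept their direction in every setting run. Their groups did not overlap, so leaving out libraries could not reverse them, and the kept direction adds no support. The cause of the turns in the other genes and shares was not tested.

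With the replicate number as a block, edgeR called 0 of 14857 genes and 0 of the 36. The labels do not say that equal numbers pair the libraries. Deviations from the group means correlated at 0.0058, -0.53 and -0.48 between libraries of the same number (across genes, which are not independent). The fit without the block was therefore kept. Between libraries of different numbers the correlations ran from -0.31 to 0.60. The highest were 0.60 for DMSO replicate 3 with RIP1i replicate 2 and 0.40 for DMSO replicate 2 with RIP1i replicate 3. Whether such libraries are linked is not given by the labels and was not tested. Low counts limit Adm, P4ha2, Egln3, Car9 and Ankrd37.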
